A study of Mus musculus with 36 samples.

Results

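Gut of mouse embryos at embryonic stage E14.5 was compared between 2 sets of RNA-seq libraries. The first set comprised 3 libraries that carry the label Ret null, chosen by their own level of Ret RNA, 1 FPKM or more (females 1 and 3 and male 1). FPKM, the number of fragments divided by transcript length and by sequencing depth, is the unit of every level given here. The second set comprised all 6 wild-type libraries of that stage, 3 female and 3 male. These 9 libraries belong to a series of 36 that also covers E10.5 and E12.5. All are of strain C57BL/6J, and guts were dissected and poly(A) RNA was sequenced. The labels describe neither the null allele nor whether each library is a separate embryo. The spread behind every p-value is therefore that between libraries and may be technical.

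Ret encodes a receptor tyrosine kinase of the neural crest cells that colonize the gut and form the enteric nervous system. It binds GDNF family ligands through GFRA co-receptors, and signalling through it keeps these cells alive, dividing and moving along the gut. Mice without Ret lack enteric neurons over most of the gut, while the epithelium, mesenchyme and muscle of the gut wall come from other lineages. Around this stage the intestinal epithelium begins to form villi and to switch on absorptive and secretory genes, and the pancreas, which buds from the same tube, begins to make digestive enzymes.

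Ret stood at 6.49, 5.76 and 6.03 FPKM in null-labelled female 1, female 3 and male 1. Wild-type females 1 to 3 held 8.61, 11.5 and 8.73 FPKM, and wild-type males 1 to 3 held 8.82, 4.70 and 9.87 FPKM. The means were 6.09 ± 0.368 (SD, n = 3) and 8.70 ± 2.24 (SD, n = 6), and the 2 ranges overlapped only through wild-type male 2. The 1 FPKM threshold fell in a wide gap: the lowest library above it held 5.76 FPKM and the highest null-labelled library of this stage below it, female 2, held 0.0587 FPKM. The other two null-labelled libraries, males 2 and 3, held 0.0221 and 0.0111 FPKM. Because Ret chose the libraries, its level and those of genes of the crest cells that carry it are descriptions. These genes entered the fit of all genes given below, but the p-values of that fit are not used as support for them.

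**Figure D1:**
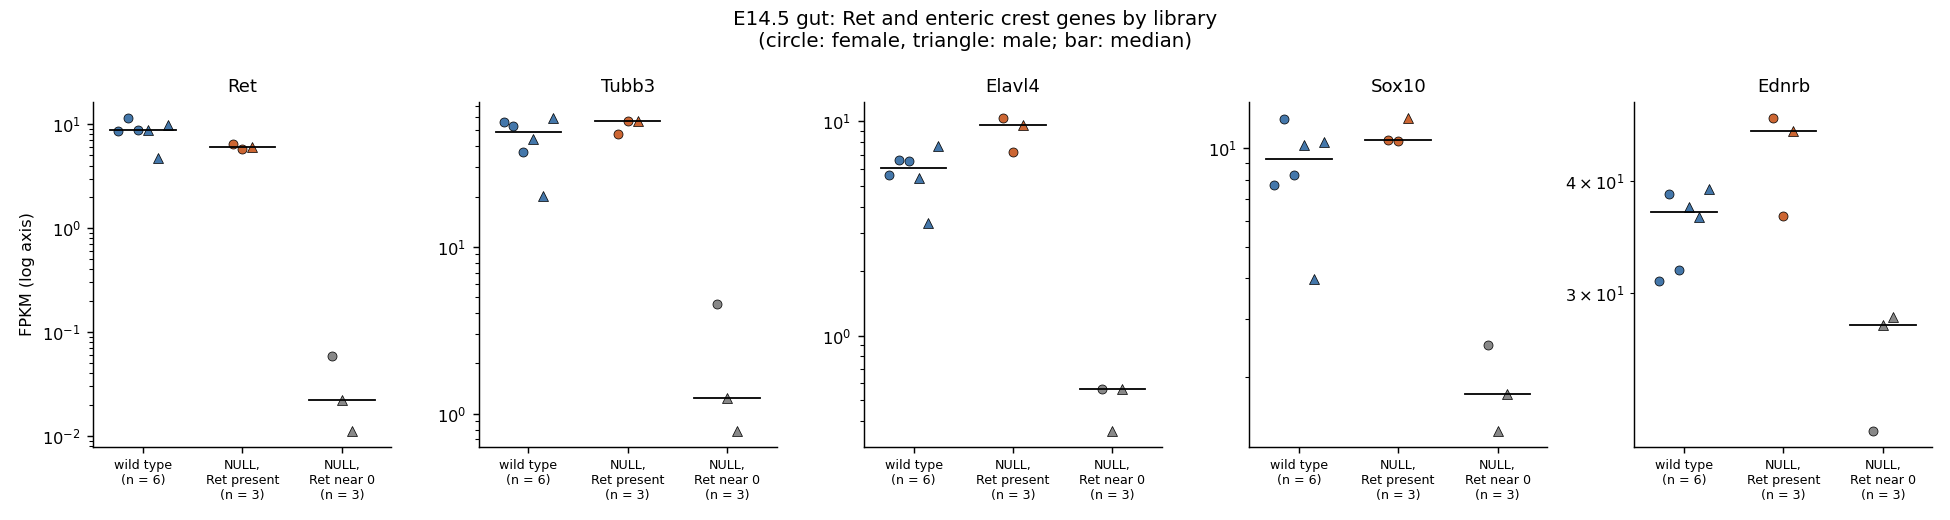
FPKM (log axis) of Ret and 4 enteric crest genes in each E14.5 library, with circles for females, triangles for males and bars for group medians. The 3 null-labelled libraries with Ret overlap the 6 wild-type libraries for each gene, and the 3 null-labelled libraries without Ret lie below both.

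Genes of the enteric nervous system were present in the Ret-expressing null-labelled guts at about wild-type levels. Sox10, a transcription factor of crest progenitors and glia, stood at 10.6, 10.53 and 12.4 FPKM, against 3.97 to 12.3 FPKM (median 9.26) in wild type and 1.37 to 2.51 FPKM in the null-labelled libraries without Ret. Elavl4, an RNA-binding protein of neurons, stood at 10.4, 7.23 and 9.60 FPKM, against 3.36 to 7.67 FPKM (median 6.08). For both genes wild-type male 2 held the lowest wild-type value. The mean log2(FPKM + 1) over 37 tested neuronal genes of 39 listed was 3.37 to 3.42 in the Ret-expressing null-labelled libraries, inside the wild-type range of 2.49 to 3.66, and 1.28 to 1.74 in those without Ret.

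Some single enteric genes lay outside or at the edge of the wild-type range, but the 5 described here did not pass the test of all genes given below (limma adjusted p = 0.185 to 0.243). Cartpt, which encodes a neuropeptide precursor, lay above every wild-type library at 8.85, 13.1 and 10.2 FPKM (wild type 4.43 to 8.47, median 7.34), though its log2 difference turned to -0.0579 with depth as a covariate. Scg2, a secretogranin of dense-core vesicles, stood at 0.987, 0.846 and 1.21 FPKM, near wild-type male 2 at 0.896 and below the other wild-type libraries at 1.597 to 3.09 FPKM. Of the ligands and receptors, Gfra1, the GDNF co-receptor, stood at 22.9, 19.9 and 24.8 FPKM, above all wild-type libraries (7.65 to 16.9, median 14.3). The null-labelled libraries without Ret also exceeded that range, at 17.8 to 19.9 FPKM. Edn3, the endothelin ligand that mesenchyme supplies to crest cells, showed the same order, at 11.9, 9.92 and 10.1 FPKM against 5.86 to 9.10 FPKM in wild type and 9.63 to 11.7 FPKM without Ret. Its receptor gene Ednrb, which the crest cells themselves carry, stood at 47.0, 36.6 and 45.4 FPKM with Ret, 30.9 to 39.1 FPKM in wild type and 21.1 to 28.2 FPKM without.

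Across all genes few differences passed the test. Of 13742 genes tested with limma on log2(FPKM + 1), 5 were called at an adjusted p under 0.05, 0.0364% of those tested: 3 were higher (0.0218%) and 2 lower (0.0146%) in the Ret-expressing null-labelled libraries. With median-ratio scaling between libraries 7 were called, 3 higher and 4 lower. At an unadjusted p under 0.05 there were 2246 genes (16.3%), 1535 higher (11.2%) and 711 lower (5.17%). The median log2 difference of all genes was 0.0494. Implied sequencing depth was 8.06 to 9.16 M fragments in the Ret-expressing null-labelled libraries and 5.31 to 7.49 M in wild type, with no overlap, so depth and group cannot be told apart, and with depth as a covariate 0 genes were called with limma, while 961 had an unadjusted p under 0.05. Each called gene is therefore given with its value in every group.

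Pfkp, the platelet-type phosphofructokinase that catalyses the committed step of glycolysis (mm10 chr13:6579874-6648724, minus strand in GENCODE, its 3' end overlapping Pitrm1 on the other strand), fell in the Ret-expressing null-labelled guts. It stood at 5.58, 5.65 and 6.12 FPKM in the 3 null-labelled libraries and at 10.4, 14.01 and 9.70 FPKM in wild-type females and 12.9, 14.1 and 13.3 FPKM in wild-type males. The highest null-labelled value thus lay well under the lowest wild-type one, and the log2 difference was -0.94 (SE 0.112, limma adjusted p = 0.0353). The null-labelled libraries without Ret held 3.53 to 4.52 FPKM. In the 24 libraries of the earlier stages, of both labels, Pfkp lay between 1.51 and 4.32 FPKM.

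Vprbp, now named Dcaf1, a substrate receptor of the CUL4 ubiquitin ligase (chr9:106821976-106880992, plus strand, overlapping Manf and Rbm15b on the other strand), also fell. Its level was 22.6, 26.3 and 37.6 FPKM in the null-labelled libraries against 62.9 to 83.2 FPKM (median 74.2) in wild type. The log2 difference was -1.31 (SE 0.147, adjusted p = 0.0343). As for Pfkp, the 6 wild-type libraries of E14.5 were the ones that stood apart in the series. The null-labelled libraries without Ret held 27.2 to 34.3 FPKM for Vprbp, and all 24 libraries of E10.5 and E12.5, wild type included, held 20.6 to 48.1 FPKM.

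Of the 3 genes that rose, 4921507P07Rik, a protein-coding gene on chromosome 6 (chr6:50573304-50596590, minus strand, overlapped by the antisense gene 5430402O13Rik), stood at 3.68, 3.04 and 3.02 FPKM against 0.279 to 0.789 FPKM (median 0.412) in wild type. The log2 difference was 1.52 (SE 0.130, adjusted p = 0.0103). Among the null-labelled libraries without Ret, female 2 and male 3 were as high, at 3.82 and 3.995 FPKM, and male 2 was low, at 0.729 FPKM. In the 24 libraries of the earlier stages, of both labels, this gene ranged from 0.589 to 7.60 FPKM. Wild-type males 1 and 3 of E12.5 were high too, at 3.525 and 4.15 FPKM, and the other wild-type libraries of these stages held 0.638 to 1.16 FPKM. The long noncoding RNA 2410018L13Rik (chr12:22953997-23010243, minus strand) stood at 17.8, 16.6 and 13.8 FPKM against 7.73 to 9.15 FPKM (median 8.74), a log2 difference of 0.82 (SE 0.0947, adjusted p = 0.0343). The null-labelled libraries without Ret held 13.95 to 21.7 FPKM. All 24 libraries of the earlier stages, at 10.2 to 18.5 FPKM, exceeded the wild-type maximum of E14.5 for this gene.

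The third is a microRNA entry, the second of 2 named Mir684-1 in the files (chr11:75065907-75065991, within an intron of Smg6). It falls outside the rule for naming genes and is named because the calls are so few. It stood at 1700, 934 and 1344 FPKM against 291 to 387 FPKM in wild type, a log2 difference of 1.94 (SE 0.182, adjusted p = 0.0114), and at 777 to 833 FPKM in the null-labelled libraries without Ret. An entry this short takes few fragments and reads of the host gene's precursor, which were not separated here. Strand use in the authors' counting is unknown here, so reads of genes that overlap on opposite strands cannot be told apart either.

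**Figure D2:**
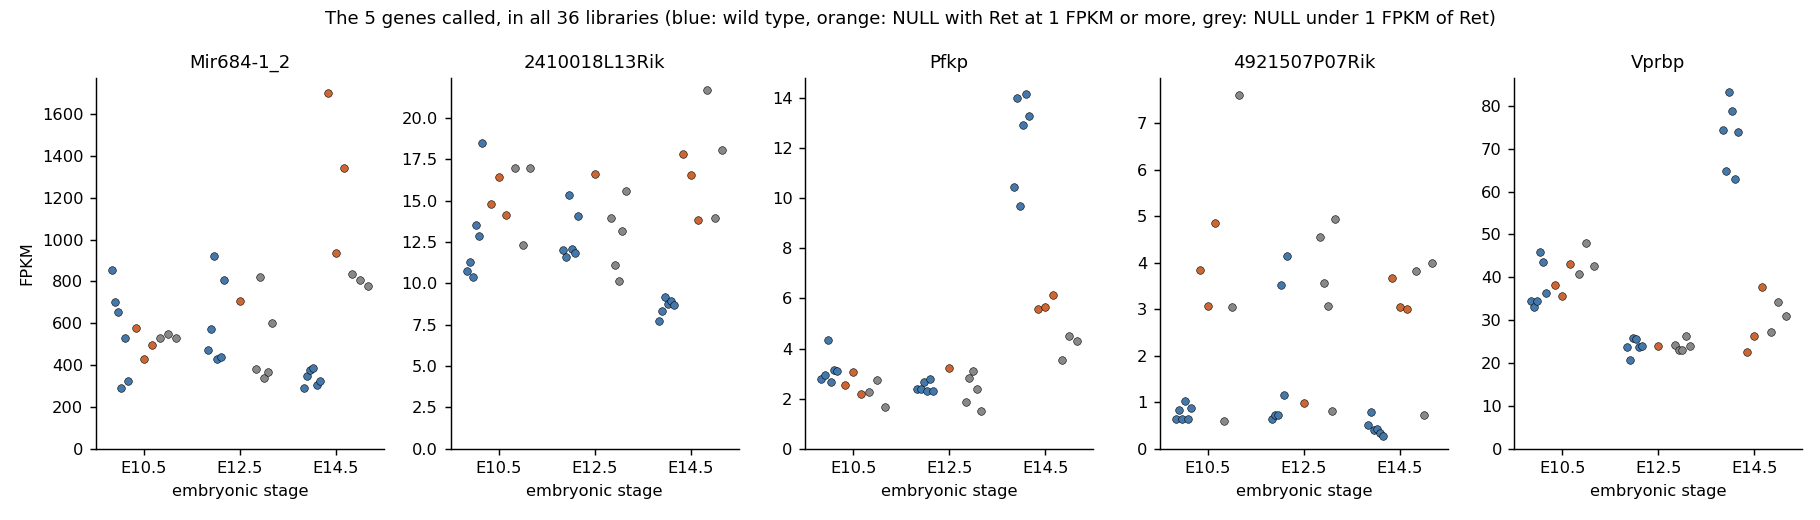
FPKM (axis from 0) of the 5 genes called, in all 36 libraries by stage, with wild type in blue, null-labelled libraries with Ret at 1 FPKM or more in orange and those under 1 FPKM in grey. For Pfkp, Vprbp and 2410018L13Rik the 6 wild-type libraries of E14.5 lie apart from every other library.

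The calls depended on the libraries included. Without 1 library at a time 1 to 4 genes were called. Over the alternatives in which each could be fitted, the direction was always kept. Mir684-1 was still called in 13 of 22, Vprbp in 9 of 22, 2410018L13Rik in 7 of 22 and Pfkp in 6 of 22. For 4921507P07Rik it was 14 of 17, which cannot be set beside the others. That gene was under 1 FPKM in every wild-type library, so it passed the filter only through the 3 null-labelled ones. It therefore could not be fitted without any 1 of these or in 1 sex alone, and its dependence on them was not tested. As the remaining genes did not pass the test, gene groups are described below by the members' values and by a count: how many members had all 3 null-labelled values above, or all 3 below, all 6 wild-type values. Over all genes tested, 983 (7.15%) lay wholly above and 363 (2.64%) wholly below. Leaving a library out can only keep or raise such a count, for a list as for all genes. Counts without a library are therefore descriptions and not a check, and mostly the omissions with the largest rise are given.

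Wild-type libraries differed among themselves in what tissue they held, which touches several groups. Wild-type female 1 had almost no Barx1, the stomach mesenchyme regulator (0.0858 FPKM, against 11.9 to 27.5 in the other five), and the most Alb, the liver-made albumin (1014 FPKM, against 0.988 to 23.4). Wild-type male 2 had the highest mean of heart and striated muscle genes, 5.04 on the log2(FPKM + 1) scale against 1.36 to 3.94. It also held the lung gene Sftpc at 417 FPKM, against 0 to 0.509 in the other wild-type libraries. Pax2, a mesonephros gene, stood at 6.74 FPKM in wild-type female 1 and 4.21 in female 3, against 0 to 0.0374 in the others. Krt1, a keratinocyte gene, stood at 33.5 FPKM in wild-type female 3, against 0.317 to 0.690 in the others. Without wild-type female 1 and male 2, 1385 genes (10.1%) lay wholly above and 708 (5.15%) wholly below, and 2 genes were called. In bulk tissue, fewer cells of a type and less RNA per cell cannot be told apart.

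**Figure D3:**
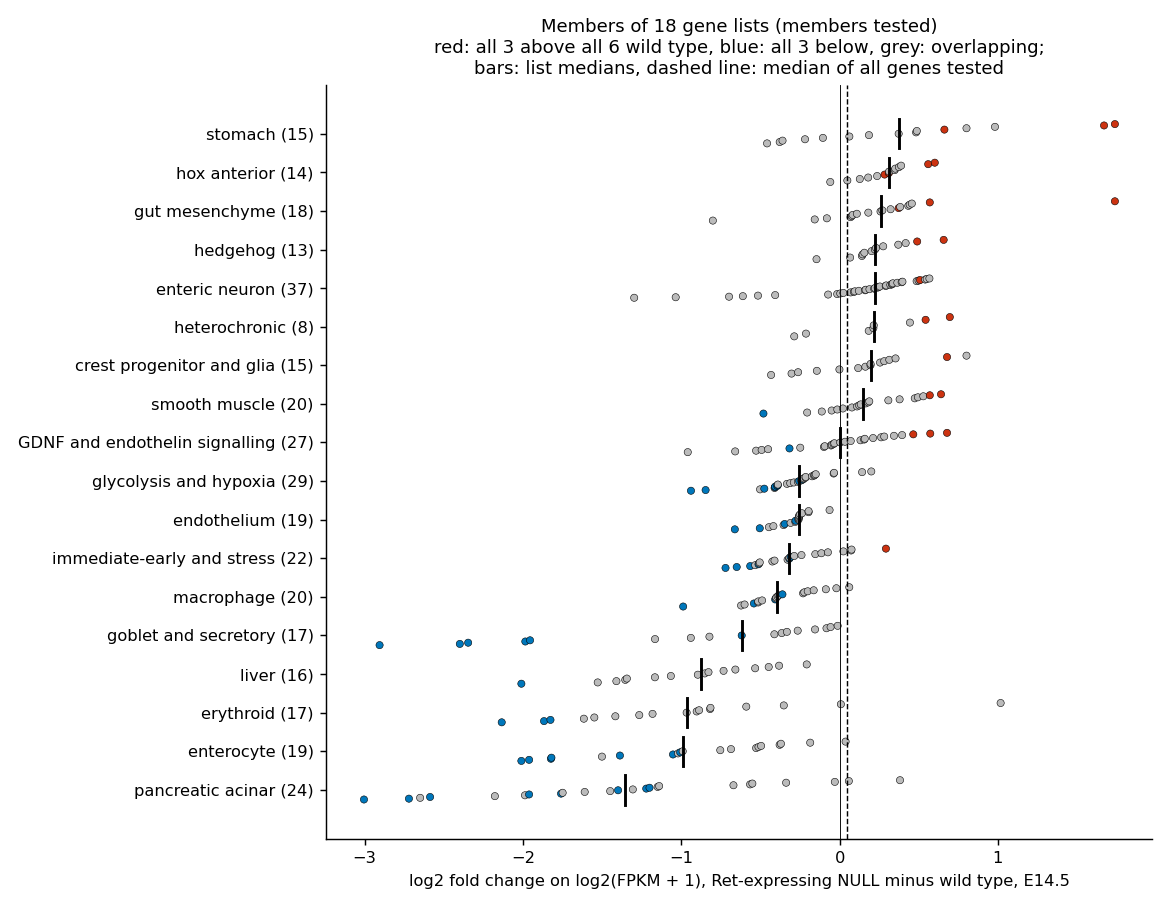
Each point is 1 tested member of 1 of 18 gene lists, placed by its log2 difference between Ret-expressing null-labelled and wild-type E14.5 gut, in red where all 3 null-labelled values exceeded all 6 wild-type values and in blue where all 3 lay below. List medians (bars) run from -1.353 for pancreatic acinar genes to 0.373 for stomach genes, and the dashed line marks the median of all genes, 0.0494.

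Genes of absorptive and secretory cells of the intestinal lining lay mostly below wild type. Hormone-producing enteroendocrine cells are another lineage of that lining, and of their 17 tested genes 8 were positive and 9 negative, with a median of -0.078 and 1 (5.88%), Sct, wholly below. Among 19 tested enterocyte genes of 22 listed, 18 had a negative log2 difference, the median was -0.991 and 7 (36.8%) lay wholly below wild type. With limma 0 were called and 11 had an unadjusted p under 0.05. Mttp, the transfer protein that loads lipid onto apolipoprotein B, stood at 5.29, 3.66 and 5.67 FPKM. Wild type held 7.82 to 24.4 FPKM (median 14.48), and the log2 difference was -1.39 (SE 0.332, adjusted p = 0.178). Fabp1, a fatty acid binding protein of absorptive cells and liver, stood at 8.77, 7.53 and 11.3 FPKM against 15.0 to 89.4 FPKM (median 42.2). Its lowest wild-type values were those of males 1 and 2, and the log2 difference was -1.96 (SE 0.512, adjusted p = 0.185).

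The apolipoprotein genes behaved alike. Apoa4 stood at 0.698, 0.551 and 1.01 FPKM against 2.29 to 15.7 FPKM (median 3.81). Apoc3 stood at 0.208, 0 and 0.204 FPKM against 1.06 to 9.01 FPKM (median 2.62). Apoa1, which the liver also makes, stood at 17.6, 16.4 and 19.4 FPKM against 22.9 to 268 FPKM, the highest value being that of wild-type female 1. The mean over the 19 enterocyte genes was 2.598, 2.40 and 2.69 in the null-labelled libraries against 2.82 to 4.28 in wild type, and 2.26 to 2.85 in the null-labelled libraries without Ret. Without wild-type female 1 and male 2, 8 of 19 lay wholly below, beside 5.15% of all genes.

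Goblet and other secretory genes showed the same direction in every member: all 17 tested of 20 listed were negative, with a median log2 difference of -0.618, and 6 (35.3%) lay wholly below. Sct, which encodes the hormone secretin, stood at 5.93, 9.51 and 8.17 FPKM against 31.9, 52.8 and 34.7 FPKM in wild-type females and 19.7, 21.1 and 39.3 FPKM in wild-type males. It came closest to the threshold among the list members not called (log2 difference -1.96, SE 0.270, adjusted p = 0.0811) and passed it under both other scalings, at adjusted p = 0.0468 with median-ratio scaling and 0.0466 with quantile normalization. Guca2a, the guanylin precursor that regulates intestinal salt and water secretion, stood at 0.939, 2.33 and 1.83 FPKM against 4.56 to 17.7 FPKM (median 9.20). The log2 difference was -1.99 (SE 0.335, adjusted p = 0.117).

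Spink4 and Tff3, goblet-cell product genes, also lay wholly below wild type. Spink4 stood at 0.691, 2.39 and 1.37 FPKM against 5.48 to 37.9 FPKM (median 16.6), a log2 difference of -2.91 (SE 0.529, adjusted p = 0.120). Tff3, a trefoil peptide of mucus, stood at 8.86, 18.3 and 23.9 FPKM against 44.7 to 175 FPKM (median 78.6). Ly6d, a small membrane-anchored protein, stood at 0.138, 0.866 and 0.532 FPKM against 1.97 to 19.4 FPKM. The null-labelled libraries without Ret fell in the same low range for Sct (2.40 to 8.88 FPKM) and Guca2a (0.187 to 3.25 FPKM).

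Genes that mark the epithelium as a whole lay near the level of all genes. Of 27 tested epithelial genes the median log2 difference was -0.069, and 1 (3.70%) lay wholly below, near the 2.64% of all genes. Epcam, an adhesion molecule of all gut epithelial cells, stood at 133, 126 and 140 FPKM, inside the wild-type range of 107 to 206 FPKM. Cdx2, the intestinal master regulator, stood at 21.6, 22.6 and 27.0 FPKM, inside the range of 12.3 to 38.3 FPKM.

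Digestive enzyme genes of the exocrine pancreas had the lowest median of the 18 plotted lists, -1.353, over 24 tested of 29 listed, and 8 (33.3%) lay wholly below. Heart and striated muscle genes, not plotted, had a median of -1.422 with all 20 tested negative, but 1 (5%) lay wholly below. Amy2a5, a pancreatic amylase, stood at 7.30, 5.80 and 13.9 FPKM against 26.1 to 247 FPKM (median 82.2), a log2 difference of -3.0 (SE 0.679, adjusted p = 0.178). Wild type varied widely, with female 1 and male 1 at the bottom and female 2 at the top. Spink3, a trypsin inhibitor, stood at 13.9, 17.3 and 12.8 FPKM against 20.5 to 82.4 FPKM, and Amy2b and the trypsinogen Try10 had the same order of groups. Amylase and trypsinogen genes are families of near-identical copies whose reads the counting may split among members. By the mean of the list the groups overlapped: null-labelled male 1 at 2.90 exceeded wild-type female 1 and male 1, both at 2.81. How much pancreas each dissected gut carried was not tested. Without null-labelled male 1, 16 of 24 lay wholly below, beside 643 (4.68%) of all 13742 genes.

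**Figure D4:**
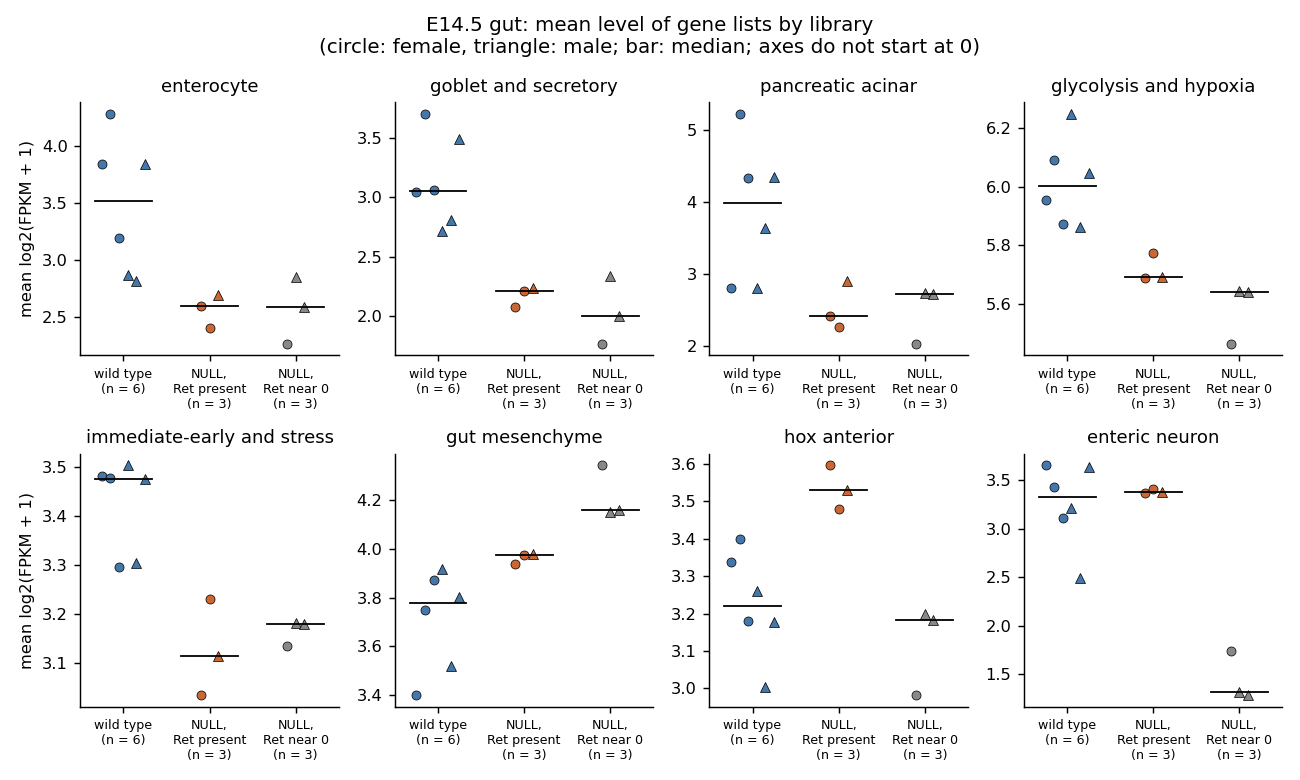
Mean log2(FPKM + 1) over the tested members of 8 gene lists in each E14.5 library, with circles for females, triangles for males, bars for group medians and axes that do not start at 0. The Ret-expressing null-labelled libraries lie beside those without Ret for enterocyte and goblet genes and inside the wild-type range for enteric neuron genes.

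Glycolysis and hypoxia genes had small differences, nearly all negative. Of 29 tested, 27 had a negative log2 difference, the median was -0.256, 9 (31.0%) lay wholly below and 1, Pfkp, was called. Pgk1, a phosphoglycerate kinase, stood at 373, 363 and 375 FPKM against 442 to 523 FPKM (median 509), a log2 difference of -0.41 (SE 0.0847, adjusted p = 0.151). Tpi1, triosephosphate isomerase, stood at 263, 307 and 266 FPKM against 336 to 402 FPKM (median 371). Ldha, which makes lactate from pyruvate, stood at 401, 406 and 401 FPKM against 449 to 586 FPKM (median 543). Car9, Pdk1, Hk1, Pkm and Aldoc were the other members wholly below wild type. The null-labelled libraries without Ret were as low or lower for Pgk1 (306 to 373 FPKM) and Tpi1 (221 to 257 FPKM). Without null-labelled female 3, 14 of 29 lay wholly below, beside 1205 (8.77%) of all genes. The negative lean was not particular to this list. Of 26 oxidative phosphorylation genes 25 were negative (median -0.175), and of 30 ribosomal protein genes 28 were (median -0.199). In both lists 0 lay wholly below, but without null-labelled female 3, 6 of 26 and 22 of 30 did.

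Because these genes lay to one side together, the 250 bases ahead of the start were read from RefSeq (GRCm38.p6) for Pfkp, Pgk1, Tpi1 and Ldha and searched for ACGTG, the core of the element that hypoxia-inducible factors bind, on both strands (CACGT on the other). Capitals mark each match, and overlapping matches run together. They lie at chr13:6648772-6649021 (minus strand), chrX:106186850-106187099 (plus), chr6:124814159-124814408 (minus) and chr7:46845554-46845803 (plus).
Pfkp: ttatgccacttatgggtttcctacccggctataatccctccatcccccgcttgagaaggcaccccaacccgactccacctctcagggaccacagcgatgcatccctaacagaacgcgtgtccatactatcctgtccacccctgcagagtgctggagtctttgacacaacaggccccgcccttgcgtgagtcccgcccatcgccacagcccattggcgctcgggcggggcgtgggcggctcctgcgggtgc
Pgk1: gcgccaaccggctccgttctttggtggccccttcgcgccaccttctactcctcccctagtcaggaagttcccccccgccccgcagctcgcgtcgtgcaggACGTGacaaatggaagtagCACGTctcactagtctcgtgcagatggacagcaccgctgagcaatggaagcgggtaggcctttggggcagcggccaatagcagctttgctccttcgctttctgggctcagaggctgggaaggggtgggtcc
Tpi1: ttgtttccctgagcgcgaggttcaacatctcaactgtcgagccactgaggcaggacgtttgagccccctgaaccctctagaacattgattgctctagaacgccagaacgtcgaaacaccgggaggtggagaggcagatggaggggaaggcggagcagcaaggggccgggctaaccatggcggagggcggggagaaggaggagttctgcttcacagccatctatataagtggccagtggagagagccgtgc
Ldha: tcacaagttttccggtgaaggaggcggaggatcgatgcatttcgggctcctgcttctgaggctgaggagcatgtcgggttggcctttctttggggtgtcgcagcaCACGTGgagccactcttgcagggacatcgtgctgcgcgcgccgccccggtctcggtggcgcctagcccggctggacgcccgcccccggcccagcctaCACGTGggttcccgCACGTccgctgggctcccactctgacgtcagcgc
Pfkp and Tpi1 had no ACGTG match in this window, though that of Pfkp holds GCGTG, and Pgk1 had 1 on each strand. For Tpi1 the RefSeq start used lies inside the measured entry, which ends at 124814296, so part of its window does too. Ldha had 2 on the printed strand and 3 on the other, with each CACGTG stretch counted on both. The motif was present in 12 of 26 list members with a promoter in RefSeq (46.2%) and in 5444 of all 32851 promoters (16.6%). The list was chosen to hold hypoxia genes, so a higher share is built into it and is not a result of these libraries. In addition, 1 promoter was taken for each list member but every promoter for the background. A match is a description of the sequence and was not tested against the expression values.

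Immediate-early and stress genes report recent signalling and cell stress, and they had a median log2 difference of -0.317 over 22 tested, with 6 (27.3%) wholly below. Jun was the 1 member wholly above. Junb, an AP-1 transcription factor, stood at 3.33, 5.08 and 3.77 FPKM against 5.18 to 9.42 FPKM (median 7.54), null-labelled female 3 being close to wild-type male 2 at 5.18. Trib3, a pseudokinase induced by stress signalling, stood at 0.369, 0.404 and 0.522 FPKM against 0.575 to 1.87 FPKM. Egr1 and Ier3, both induced quickly after stimulation, also lay wholly below. Without null-labelled female 3, 13 of 22 lay wholly below, beside 8.77% of all genes. Handling of the guts at dissection was not tested.

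Macrophage, vessel and red cell genes leaned the same way. Of 20 tested macrophage genes 19 were negative, the median was -0.396 and 4 (20.0%) lay wholly below. Lyz2, the lysozyme of macrophages, stood at 12.6, 15.5 and 10.2 FPKM against 20.0 to 34.2 FPKM (median 27.6), a log2 difference of -0.99 (SE 0.185, adjusted p = 0.120). The complement gene C1qa stood at 10.3, 11.7 and 8.74 FPKM against 13.3 to 18.8 FPKM. For C1qb null-labelled female 3 reached 19.4 FPKM and fell inside the wild-type range of 17.7 to 23.1 FPKM, and without that library 13 of 20 lay wholly below, beside 8.77% of all genes. Of 6 tested lymphoid and spleen genes 3 were positive and 3 negative, with a median of -0.012.

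All 19 endothelial genes were negative, by a median of -0.260, and 4 (21.1%) lay wholly below. Without null-labelled female 3, 11 did, beside 8.77% of all genes, and without null-labelled male 1, 7 did, beside 4.68%. Lyve1, a receptor of lymphatic vessels and some macrophages, stood at 5.51, 7.57 and 3.53 FPKM against 7.57 to 12.8 FPKM (median 8.52), so that null-labelled female 3 and wild-type female 3 were nearly equal. Wild-type male 2 held the highest value for Sox17, a vessel transcription factor, at 5.30 FPKM against 2.58 to 3.22 FPKM in the other five wild-type libraries. The null-labelled libraries stood at 1.82, 2.07 and 1.69 FPKM.

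Red cell genes, whose RNA comes with blood in the tissue, varied widely among the wild-type libraries. Hbb-b2, an adult beta globin, stood at 529, 1051 and 659 FPKM against 1354 to 9239 FPKM (median 3099), a log2 difference of -2.13 (SE 0.565, adjusted p = 0.186). Alas2, the first enzyme of heme synthesis in red cells, stood at 7.57, 9.73 and 9.74 FPKM against 15.6 to 98.5 FPKM (median 32.2). Of 17 tested red cell genes 3 (17.6%) lay wholly below. Without null-labelled female 1, 7 did, beside 3.34% of all genes, and without null-labelled female 3, 6 did, beside 8.77%. Reads of adult beta globin copies may be shared between Hbb-b2 and Beta-s. How much blood remained in each dissected gut was not tested. Liver genes were negative in all 16 tested, with a median of -0.874, but only Apoa1 (6.25%) lay wholly below, and the mean of the list was 2.20 to 3.30 in the null-labelled libraries, inside the 2.19 to 3.64 of wild type once female 1, at 6.69, is set aside.

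Genes of the mesenchyme and its signals lay on the other side. Of 18 tested gut mesenchyme genes 15 were positive, the median was 0.264 and 3 (16.7%) lay wholly above, beside 7.15% of all genes. Foxf1, the transcription factor that gut mesenchyme needs, stood at 58.5, 60.1 and 58.1 FPKM against 29.1 to 47.6 FPKM (median 43.9), a log2 difference of 0.57 (SE 0.129, adjusted p = 0.178). Tcf21, a bHLH factor of visceral mesenchyme, stood at 95.8, 106 and 94.9 FPKM against 69.8 to 86.4 FPKM (median 77.3). Meox1 went the other way, at 1.84, 2.02 and 1.51 FPKM against 1.88 to 5.80 FPKM. Without wild-type male 1 or wild-type male 2, 5 of 18 lay wholly above, beside 8.79% and 8.59% of all genes.

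Hedgehog ligands are made by the gut epithelium and act on the mesenchyme beneath. The ligand Shh stood at 20.7, 18.6 and 20.5 FPKM against 8.59 to 16.7 FPKM (median 12.7), a log2 difference of 0.66 (SE 0.151, adjusted p = 0.178). Its transducer Gli3 stood at 11.5, 9.79 and 11.9 FPKM against 6.76 to 8.87 FPKM (median 7.46), a log2 difference of 0.49 (SE 0.104, adjusted p = 0.157). Both lay wholly above wild type, as 2 (15.4%) of 13 tested. The signal transducer Smo (49.3, 48.8 and 52.5 FPKM) and Gli2 (7.14, 8.10 and 8.49 FPKM) overlapped wild type, at 40.7 to 49.3 and 5.29 to 8.85 FPKM. Without wild-type male 1, the library with the highest wild-type Shh, Smo and Gli2, 5 of 13 lay wholly above, beside 8.79% of all genes. Without null-labelled female 3, 4 did, beside 19.1% of all genes.

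**Figure D5:**
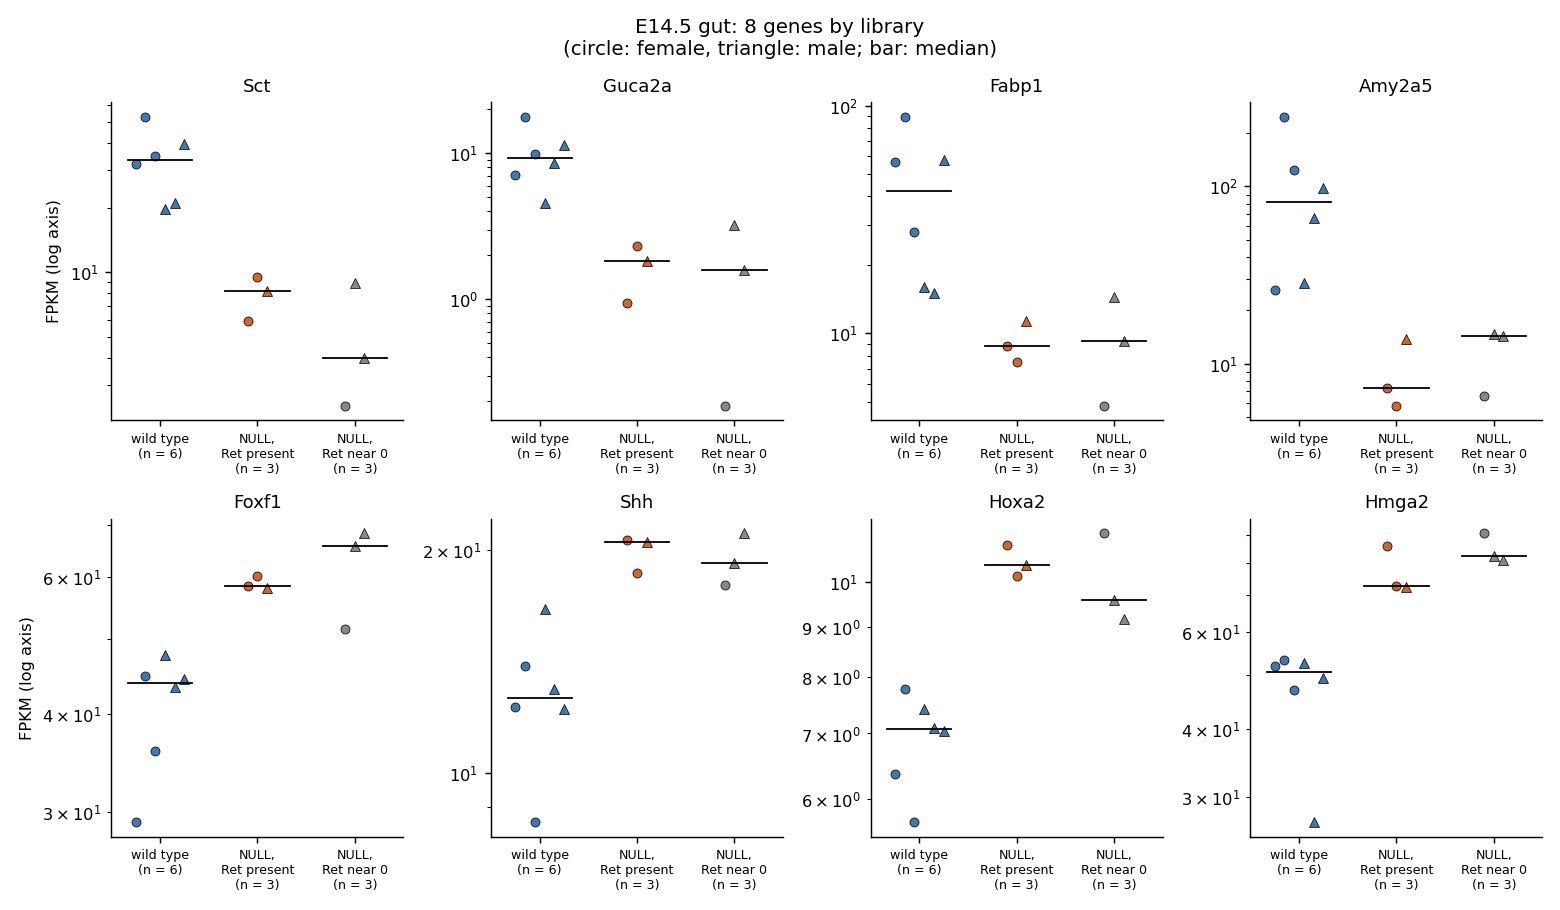
FPKM (log axis) of 8 genes in each E14.5 library, with circles for females, triangles for males and bars for group medians. Sct, Guca2a, Fabp1 and Amy2a5 lie wholly below wild type and Foxf1, Shh, Hoxa2 and Hmga2 wholly above in the 3 null-labelled libraries with Ret, and the 3 without Ret lie on the same side of wild type.

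Smooth muscle genes lay on both sides: the median of 20 tested was 0.149, 2 (10%) lay wholly above and 1 (5%) wholly below, and without wild-type female 1 and male 2 the median was -0.021. The 2 above were Foxf1 and Myocd, the coactivator that starts the smooth muscle programme, at 9.65, 9.79 and 11.8 FPKM against 4.74 to 8.58 FPKM. The 1 below was Des, the intermediate filament desmin of mature muscle, at 36.1, 40.7 and 37.4 FPKM against 45.7 to 67.8 FPKM (median 53.5), a log2 difference of -0.48 (SE 0.107, adjusted p = 0.168). Acta2, smooth muscle actin, stood at 335, 517 and 372 FPKM, the first and last inside the wild-type range of 233 to 499 FPKM and the second above it.

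Anterior Hox genes, which mark the front part of the gut and are also carried by vagal crest cells, lay higher. Of 14 tested 13 were positive, the median was 0.312 and 4 (28.6%) lay wholly above, Hoxa2 and Hoxc5 among them. Hoxa2 stood at 10.9, 10.2 and 10.4 FPKM against 5.68 to 7.77 FPKM (median 7.07), a log2 difference of 0.56 (SE 0.0992, adjusted p = 0.120). Hoxc5 stood at 8.24, 6.27 and 7.45 FPKM against 2.61 to 5.71 FPKM. Without null-labelled female 3, 8 of 14 lay wholly above, but so did 2630 (19.1%) of all 13742 genes. The mean of the list was 3.48 to 3.60 with Ret and 3.00 to 3.40 in wild type. In the null-labelled libraries without Ret it was 2.98 to 3.20, but some members did not follow that mean. Among the 4 members with the smallest p, Hoxa2 (9.16 to 11.2 FPKM) and Hoxc5 (6.77 to 7.50 FPKM) without Ret exceeded every wild-type value. So did Hoxa4, at 10.86 to 11.96 FPKM against a wild-type maximum of 10.57 FPKM. Hoxb3 without Ret, at 16.7 to 18.4 FPKM, overlapped the wild-type range of 13.98 to 17.7 FPKM. Posterior Hox genes had a median of -0.273 and 0 of 19 outside the wild-type range.

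Stomach genes had the highest median of the 18 plotted lists, 0.373 over 15 tested of 21 listed, with 3 (20.0%) wholly above: Nepn, an extracellular matrix proteoglycan, Nkx6-3, a transcription factor of the distal stomach, and Barx1. Without wild-type female 2, 5 of 15 lay wholly above, beside 8.80% of all genes. The median turned to -0.150 without wild-type female 1 and male 2, and it also changed sign without wild-type female 1 alone. Nepn stood at 11.3, 8.85 and 10.1 FPKM, against 2.29 to 5.09 FPKM in the wild-type libraries other than female 1 and 0.433 FPKM in that library. Barx1 stood at 36.3, 38.7 and 38.8 FPKM against 11.9 to 27.5 FPKM in the other five. The lengths of gut dissected from each embryo are not given in the labels.

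Genes of the heterochronic pathway, whose levels set developmental timing, were few: of 12 listed 8 were tested, 6 positive and 2 negative. Lin28a, Lin28b, Trim71 and Prtg did not reach 1 FPKM in enough libraries to be tested. The 2 wholly above wild type (25.0% of 8 tested, beside 7.15% of all genes) were Hmga2 and Hmga1. Hmga2, a chromatin protein of fetal cells, stood at 86.1, 72.8 and 72.6 FPKM against 27.0 to 53.3 FPKM (median 50.7), a log2 difference of 0.70 (SE 0.189, adjusted p = 0.190). Hmga1, its paralogue, stood at 70.3, 69.5 and 74.7 FPKM against 38.7 to 61.7 FPKM (median 49.4), a log2 difference of 0.54 (SE 0.128, adjusted p = 0.178). Igf2bp3, a fetal mRNA-binding protein, stood at 41.6, 33.3 and 37.0 FPKM, and its lowest value lay under wild-type female 2 at 34.4 FPKM.

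Levels in wild-type gut of E12.5 are set beside these for scale, with females 1 and 2 of that group, which differed by little more than counting noise, averaged to 1 sample. The stages were deposited as separate libraries, and no source used here says whether the authors scaled them to each other. Hmga2 stood at 226 to 258 FPKM over the 5 samples of E12.5, against a median of 72.8 in the Ret-expressing null-labelled libraries and 50.7 in wild type at E14.5. The corresponding values were 0.709 to 1.81 FPKM, 8.77 and 42.2 for Fabp1, and 1.34 to 2.51 FPKM, 8.17 and 33.3 for Sct. They were 13.8 to 19.4 FPKM, 11.5 and 7.46 for Gli3, and 5.33 to 10.2 FPKM, 12.6 and 27.6 for Lyz2. These genes were chosen after their values were seen, and in each the Ret-expressing null-labelled median lay between the E12.5 and E14.5 wild-type medians. Of the 74 genes that were called or picked by the naming rule for the lists, 58 had that order, 13 had a null-labelled median above both wild-type medians and 3 below both. These 74 were picked for a small limma p between the same E14.5 libraries. The share of all genes with that order was not computed, so the count has no background and is only a description. Among the 5 genes called, Pfkp and Vprbp had that order and the others lay above both wild-type medians. Shh, too, lay above both, with 10.6 to 25.3 FPKM at E12.5, 20.5 in the null-labelled libraries and 12.7 in wild type at E14.5. Differences in the exact age of the embryos were not tested.

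Genes around Ret itself were examined because a targeted allele can carry flanking sequence. Within 10 Mb of Ret on chromosome 6, 148 genes were tested and 0 were called with limma (23 at an unadjusted p under 0.05), with a median log2 difference of 0.021. Of these, 6 (4.05%) lay wholly above and 8 (5.41%) wholly below wild type, against 7.15% and 2.64% of all genes. Tpi1, described above, was among the 8 wholly below.

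Within the label, Ret itself split the 6 null-labelled libraries, so a comparison of the 3 with Ret and the 3 without cannot be read as a test. In a fit of all 12 libraries of the stage with limma, 143 of 13861 genes (1.03%) differed between them at an adjusted p under 0.05, 142 of them higher with Ret (1.02%), Cartpt, Elavl4 and Ednrb among them, and 1 lower (0.00721%), the tRNA deaminase gene Adat3. Null-labelled males 2 and 3 differed by 1.08 times counting noise, the least of any pair of the stage. The fit took them as separate samples, and the count of 143 rests on that. It was 69 without male 2 and 72 without male 3. Both comparisons also share the 3 Ret-expressing null-labelled libraries. For that reason values without Ret are given above only as values, beside the genes called and some of the other genes named.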

How the data were processed

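Gene-level FPKM with the authors' interval was deposited for each library, per the file headers. The build was mm10 and the tools were TopHat2, Cufflinks, Cuffdiff and Picard, per the submitters' processing notes. No source used here gives their versions, settings or order. Libraries are poly(A)-selected, per the labels' protocols.

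Of 23847 entries, 13742 reached 1 FPKM in at least 3 of the 9 libraries with an OK status in all, and were fitted on log2(FPKM + 1) using limma 3.58.1 (R 4.3.3), two-sided, with a mean-variance trend, terms for group and labelled sex, and Benjamini-Hochberg adjustment (threshold 0.05). Log2 differences are on that scale and understate low genes. Read counts were not used; depth was implied from the widths of the authors' intervals. The fit was tested on simulated data. Libraries of a group differed by 1.08 to 2.75 times counting noise, and none were identical.

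The members and the 43 gene lists were chosen with earlier results of these data known. Named genes are Ret, every called gene outside the wild-type range except short RNAs (up to 12 a direction), up to 4 members of each described list with the smallest p, and defining markers. Genes wholly outside the wild-type range, and others listed by that count, were named from their values. Some list members are not reported by name here. Start positions, counted from 0 in the files, are given from 1. Alternatives covered model terms, libraries in the fit, pseudocount, filter, scaling, depth, replicate block, sexes and each library left out. Plots were made with Python 3.11.15 and matplotlib 3.10.9.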

Additional observations from a re-analysis of the deposited data

Results flagged for a closer look

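Among 49 sets of 6 wild-type values checked for a single library far from the rest, 5 were flagged, and chance alone flags about 1 in 20 such sets. Wild-type female 1 had a mean of 0.774 for stomach genes against 2.773 to 3.371 in the other five, 6.694 for liver genes against 2.191 to 3.636, and 3.547 for gonad and mesonephros genes against 1.612 to 2.193, all on the log2(FPKM + 1) scale. In that library Cyp11a1, a steroid-making enzyme of the gonad, stood at 35.1 FPKM against 1.12 to 1.81 FPKM. Wild-type male 2 had a mean of 4.41 for endothelial genes against 3.633 to 3.794, and 3.505 for genes within 10 Mb of Ret against 3.555 to 3.576.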

How the results depend on the processing

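Against 5 genes called between Ret-expressing null-labelled and wild-type libraries, 9 were called with no sex term, 9 with 4 group means, 12 with all 12 libraries in the fit, 8 with quantile normalization and 1 with no filter on low values. The count was 0 with depth as a covariate, in females only and in males only (961, 1044 and 823 genes at an unadjusted p under 0.05 with limma). Without single libraries it ran from 1 (wild-type female 2 or male 3) over 2 (null-labelled male 1, wild-type female 1 or male 1) and 3 (null-labelled female 1 or 3, wild-type male 2) to 4 (wild-type female 3), and it was 2 without wild-type female 1 and male 2, a choice made after seeing the data. Labelled sex and number as a replicate block gave 0 calls (1282 at an unadjusted limma p under 0.05). Residuals of libraries with the same sex and number correlated at -0.008, -0.118 and -0.236. Those of the other pairs ran from -0.437 to 0.34, so the correlations cannot tell whether libraries of the same number belong together. The titles give only the number. Between null-labelled libraries with and without Ret, 143 genes were called, and 48 to 193 without single libraries. No gene was called for a group difference that varied with labelled sex (0 of 13742, 216 at an unadjusted p under 0.05, limma), with the single null-labelled male assumed to vary like the others. With depth as a covariate Flt4 turned to 0.0501, Cartpt to -0.0579 and Spry4 to 0.0482, and Ttr turned to 0.21 in males only; the cause was not tested. Of 69 other named genes under the alternatives, 1503 of 1509 values kept their direction and their side of the threshold. None of the 69 was called and all were picked for a small limma p in these libraries. Keeping the side therefore mostly means staying uncalled, and the count is a description and not a check. The enteric neuron median turned to -0.402 with depth as a covariate, and the liver median to 0.288 in males only. The enterocyte median ranged from -1.556 to -0.401, the goblet median from -1.088 to -0.227 and the acinar median from -1.722 to -0.676.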

Other observations

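Some genes outside the lists lay wholly outside the wild-type range, and they were picked after their values were seen. Rbm46, an RNA-binding protein known from germ cells, stood at 4.85, 3.37 and 3.77 FPKM in the Ret-expressing null-labelled libraries against 0.988 to 1.78 FPKM in wild type (limma adjusted p = 0.0811). Fgfbp1, a carrier that releases fibroblast growth factors from matrix, stood at 2.51, 3.53 and 3.56 FPKM against 6.94 to 13.5 FPKM (limma adjusted p = 0.0864). Fstl5, a follistatin-like gene, stood at 2.504, 2.19 and 2.65 FPKM against 0.663 to 1.29 FPKM in wild type and 0.0549 to 0.0746 FPKM in the null-labelled libraries without Ret. The metallothionein Mt1 stood at 57.1, 81.1 and 93.0 FPKM against 104 to 445 FPKM, and Lypd8, a surface protein of the intestinal lining, at 39.9, 25.6 and 44.2 FPKM against 67.6 to 187 FPKM.

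Aldh1a1 and Rdh10, which act in retinoic acid synthesis, lay wholly above wild type. Aldh1a1 stood at 57.2, 53.1 and 45.9 FPKM against 25.2 to 41.8 FPKM, and Rdh10 at 27.4, 23.2 and 28.8 FPKM against 10.8 to 19.6 FPKM. The pseudogene Atp6v0c-ps2 had the lowest log2 difference of the genes wholly below, -4.26 (SE 0.681, limma adjusted p = 0.101), at 11.7, 0.0156 and 0.00919 FPKM against 23.6 to 78.3 FPKM. Reads of its parent gene may be split between the copies, so its level is uncertain. Among all E14.5 libraries, 4921507P07Rik lay either at 0.279 to 0.789 FPKM (7 libraries, the 6 of wild type among them) or at 3.02 to 3.995 FPKM (5 libraries).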
